A study of Rattus norvegicus with 9 samples.

Results

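The 9 genes described here belong to the pathway of the oxidant-response factor NRF2 and were followed in H9c2(2-1), a myoblast line from embryonic rat heart. All are called regulators below, including Nfe2l1, which encodes a relative of NRF2. They are Nfe2l2 and Nfe2l1, the small MAF genes Maff, Mafg and Mafk, the repressor gene Bach1, the ligase genes Keap1 and Cul3, and Sqstm1. The 9 genes were chosen by name from the pathway, out of 36856 genes with transcripts in the tables, and all 9 passed the filter on low counts that left 14706 tested genes. The 9 libraries of wild-type cells form 3 groups of 3. Control cells stayed in normal growth medium, ESW cells received energized structured water and CW cells received control water. Exposure to either water lasted 72 h at dilution 0.01, and fresh treated medium replaced the old at intervals of 24 h. For Control no such time or renewal interval is recorded, so that equal handling apart from the water is not known. The libraries are 3 per group of a single cell line, and nothing in the labels says that they came from separate cultures, so that p-values measure the spread between these libraries, which may be technical.

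NRF2, encoded by Nfe2l2, is a transcription factor that pairs with a small MAF protein and binds antioxidant response elements of genes for glutathione, NADPH and iron handling. KEAP1 tethers NRF2 to the ubiquitin ligase scaffold CUL3, so that NRF2 is degraded until oxidants or electrophiles modify KEAP1, and the autophagy receptor p62, encoded by Sqstm1, competes with NRF2 for KEAP1. BACH1 represses the same elements with the same small MAF partners. NRF1, encoded by Nfe2l1, is a membrane-anchored relative of NRF2 that is best known for driving proteasome genes.

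Sequencing depth ran from 26748673 to 48574618 estimated reads per library. The label of a myoblast was checked against markers. Of 8 skeletal myoblast markers 4 were under 1 CPM (the read count scaled to library totals that were adjusted by TMM) in every library, and the 8 together summed to 45.0 to 56.5 CPM. Most of this sum came from Cdh15 (29.8 to 36.7 CPM), with Myod1 at 7.59 to 11.2, Des at 3.88 to 6.65 and Myog at 2.00 to 3.58. Of 8 cardiomyocyte markers 6 were under 1 CPM in every library. The 8 together summed to 52.0 to 64.0 CPM, nearly all from Tnnt2 (51.4 to 62.3 CPM), and Tnni3 lay at 0.457 to 1.22 CPM. Each sum rests mainly on a single gene, so that the sums cannot rank myoblast against cardiomyocyte markers. The 8 fibroblast and smooth muscle markers summed to 57010 to 60080 CPM in Control, 57410 to 60450 in CW and 67630 to 69460 in ESW, all 6 blood markers were under 1 CPM in every library, and 4 of 5 endothelial markers were too. Most of the fibroblast and smooth muscle sum came from the collagen genes Col1a1 (mean 31330 CPM in Control and 38340 in ESW) and Col3a1 (14730 and 17170), whereas Tagln of the same list was lower in ESW (mean 3400 CPM) than in Control (3601), with no overlap. Of 5 epithelial markers 4 were under 1 CPM in every library, and their sum, nearly all from Krt8, was 49.3 to 58.5 CPM in Control, 53.2 to 56.5 in ESW and 60.6 to 64.6 in CW, which lay above both other groups. Long non-coding RNAs held 0.774% to 0.877% of reads in Control, 0.849% to 0.878% in CW and 0.682% to 0.719% in ESW. On the first principal component of all tested genes, which held 24.1% of the variance, Control replicate 1 lay at -10.9, on the side of ESW (-28.7 to -8.79), whereas the other Control libraries (7.08 and 12.3) and CW (15.4 to 16.5) lay on the other side. Without that library the same numbers of regulators, 2 against Control and 3 against CW, were called. The ESW libraries stood apart in collagen genes and in the non-coding share as well, and the part of these shifts in the results below was not tested.

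The regulators differed widely in abundance. Per transcript length, in TPM (the length-corrected share of all transcripts), the order from the highest to the lowest mean over the 9 libraries was Sqstm1, Nfe2l2, Nfe2l1, Cul3, Mafk, Mafg, Bach1, Maff and Keap1. Sqstm1 lay at 435 to 507 TPM (median 454) and ranked 327th of the tested genes. Nfe2l2 followed with 121 to 135 TPM (median 125) and Nfe2l1 with 87.5 to 112 TPM (median 99.0). Cul3 lay at 60.7 to 68.0 TPM, Mafk at 39.6 to 48.8, Mafg at 21.9 to 25.5 and Bach1 at 17.3 to 20.8. Each of these genes was above the next one in 9 of 9 libraries, with no overlap of ranges. Maff, at 12.7 to 15.7 TPM, and Keap1, at 11.4 to 13.9 TPM, overlapped over all libraries, although Maff (15.2 to 15.7 TPM) lay above Keap1 (11.4 to 13.1 TPM) within Control.

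**Figure D1:**
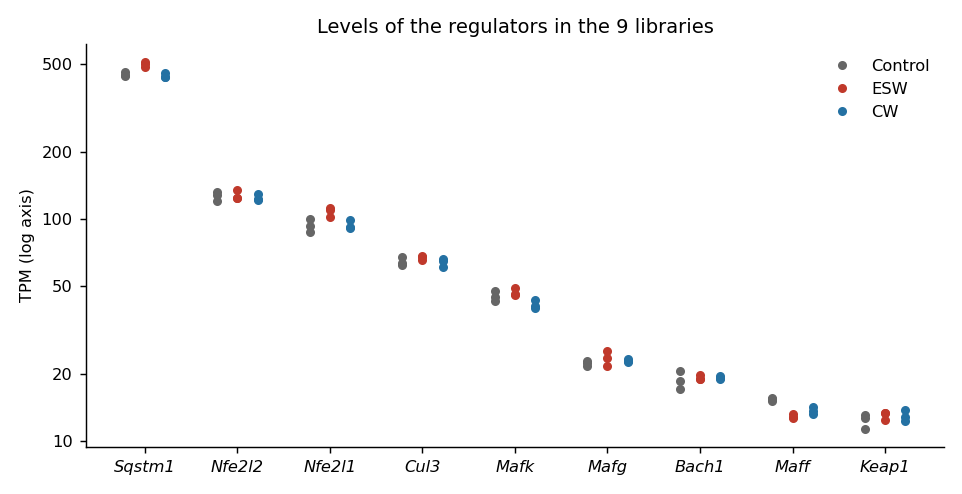
TPM of the 9 regulators (log axis) in each library, coloured by group and ordered by mean. Sqstm1 sits at 435 to 507 TPM, above every other regulator, and Maff and Keap1 share the lowest range.

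Ratios of these levels describe the balance of the pathway's transcripts, and no test was made on them. The ratio of Nfe2l2 to Keap1 was 10.1 to 10.6 in Control, 9.27 to 10.04 in ESW and 9.34 to 9.92 in CW, so that Control lay above both other groups. Cul3 exceeded Keap1 by 4.72 to 5.55 times. The ratio of Nfe2l2 to the repressor Bach1 was 6.20 to 7.42, with overlapping groups. The ratio of Nfe2l2 to Nfe2l1 was 1.32 to 1.38 in Control, 1.31 to 1.34 in CW and 1.13 to 1.22 in ESW. In ESW this ratio lay below both other groups in every library. Of the summed TPM of the 3 small MAF genes, Mafk held 51.5% to 57.0% and was the main small MAF transcript throughout. The Maff share was 18.3% to 19.4% in Control, 17.3% to 17.8% in CW and 15.3% to 15.9% in ESW, so that the 3 groups did not overlap.

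**Figure D2:**
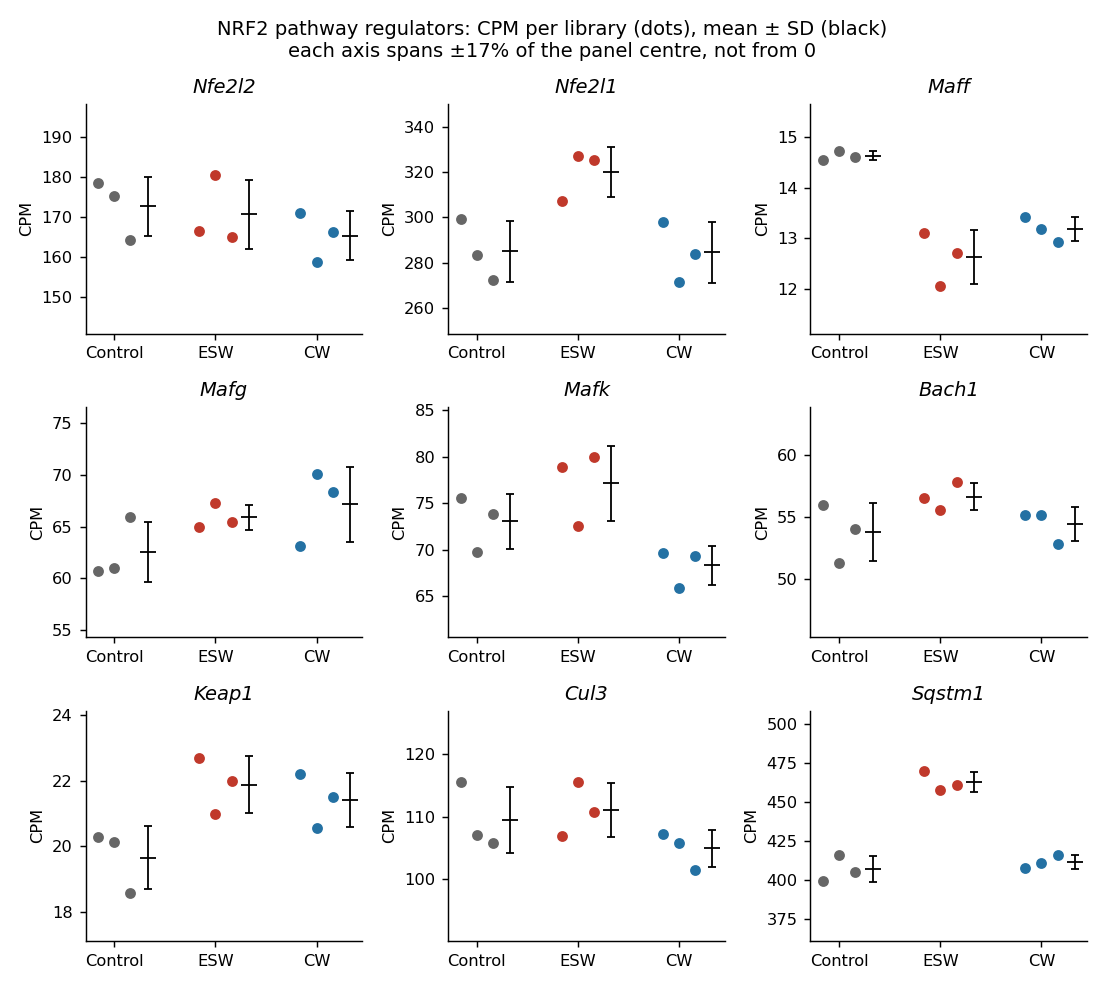
CPM of each regulator in each library (dots) with mean and SD over 3 libraries (black), on axes that span a fixed relative range and do not start at 0. Sqstm1 in ESW sits at 457.7 to 470.1 CPM against 399.5 to 416.2 in the other groups, and Nfe2l2 overlaps between all groups.

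The comparison of ESW with Control sets cells given the treated water against untreated cells, whose medium renewal is not recorded. That of ESW with CW sets them against cells given water that was not energized. Sqstm1 and Nfe2l1 were higher in ESW than in both other groups, by 12.3% to 13.7%, and Mafk was higher in ESW than in CW. Nfe2l2 itself was not called in any comparison. Of the 9 regulators 2 were called in ESW against Control, both higher, where 8.04% of all tested genes were called, 4.76% higher and 3.28% lower. In ESW against CW 3 were called, all higher, where 8.14% of all genes were called, 4.15% higher and 3.99% lower. With 9 genes chosen by name these counts are a description and set the regulators apart from no other genes. Their median log2 fold change was 0.07 against Control and 0.06 against CW, beside -0.01 and -0.0018 over all tested genes. Because both comparisons use the same ESW libraries, their values are not independent of each other.

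In CW against Control 0 of the 9 regulators were called by edgeR, where 0.177% of all genes were called, 0.0272% higher and 0.15% lower. At an unadjusted p under 0.05 there were 2, Maff and Mafg, beside 9.87% of all genes, and DESeq2 and limma-voom also called 0. The median log2 fold change of the 9 was -0.003, beside -4e-04 over all genes.

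**Figure D3:**
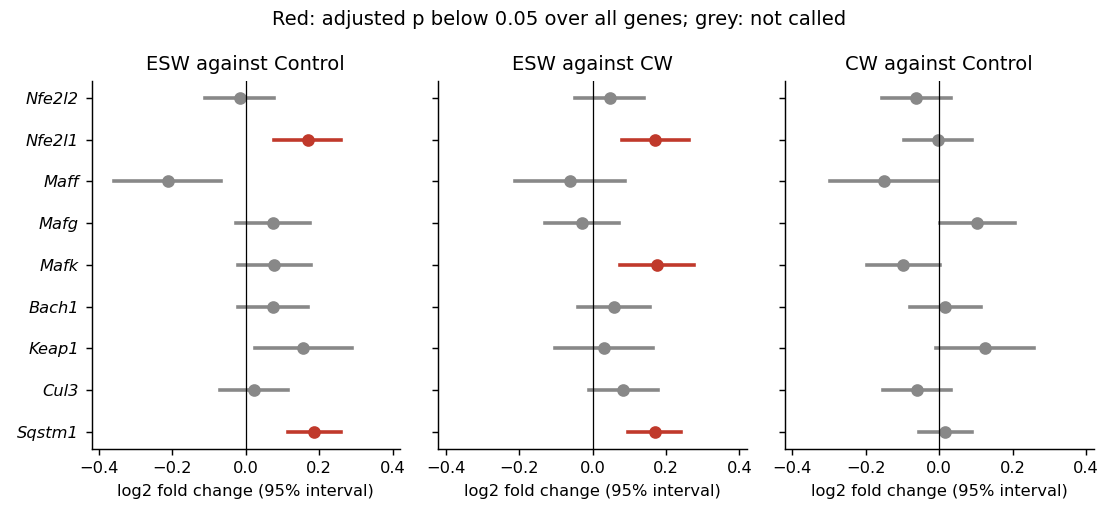
Log2 fold change of each regulator with its 95% interval in the 3 comparisons. The called genes (red) are Nfe2l1 and Sqstm1 in both ESW comparisons and Mafk in ESW against CW, and the interval of Nfe2l2 spans 0 in each.

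Of the activators, Nfe2l2 lay at 178, 175 and 164 CPM in Control replicates 1 to 3. It was at 166, 180 and 165 CPM in ESW and at 171, 159 and 166 CPM in CW. The groups overlapped. The log2 fold change was -0.02 against Control (SE 0.04, adjusted p = 0.873) and 0.05 against CW (SE 0.05, adjusted p = 0.58). The 95% interval of the difference from Control ran from -7.36% to 5.49%, and that from CW from -3.26% to 10.3%. From 4613 to 8056 reads per library stand behind these values.

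Nfe2l1, the gene of NRF1, was at 299, 283 and 273 CPM in Control and at 298, 272 and 284 CPM in CW. ESW had 307, 327 and 326 CPM, and every ESW library was above every library of the other groups. Such a full separation of libraries was found for 4 of the 9 regulators against Control and 4 against CW, beside 25.6% and 28.3% of all tested genes. The rise was 0.17 on the log2 scale against Control (SE 0.04, adjusted p = 0.0226) and also 0.17 against CW (SE 0.04, adjusted p = 0.0221). The call depended on single libraries, although the direction did not. Against Control the adjusted p was 0.0842 without Control replicate 2, 0.116 without Control replicate 3, 0.0879 without ESW replicate 2 and 0.118 without ESW replicate 3. Against CW it was 0.0921 and 0.112 without ESW replicates 2 and 3, and 0.131 and 0.0819 without CW replicates 2 and 3. With limma on log2(TPM + 1) the adjusted p was 0.112 in both comparisons, at 0.21 and 0.19 on that scale.

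The 250 bases before the first listed Nfe2l1 start (RefSeq, GRCr8, chr10:82309376-82309625, minus strand) are shown because Nfe2l1 was one of the genes that rose. Capitals in this and the following promoters mark matches to any of 4 motifs, searched on both strands. These are the antioxidant response element core TGACNNNGC, held by 10.1% of 33469 promoters of the same length, the AP-1 site TGANTCA (6.34%), the cyclic AMP response element TGACGTCA (1.59%) and the E-box CACGTG (5.59%). The first and second motif share their opening letters and can match the same bases, and no matches overlapped in the windows shown.
Nfe2l1: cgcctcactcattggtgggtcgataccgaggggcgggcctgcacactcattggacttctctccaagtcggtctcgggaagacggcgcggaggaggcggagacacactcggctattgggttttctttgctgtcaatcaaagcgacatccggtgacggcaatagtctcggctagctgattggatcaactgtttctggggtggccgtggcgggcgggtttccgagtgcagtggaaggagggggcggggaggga
None of the 4 motifs was found in this window or in those before the other 2 listed Nfe2l1 starts. Of the 9 regulators 8 have a promoter in the table.

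The small MAF proteins lack a transactivation domain of their own and serve NRF2, NRF1 and BACH1 as DNA-binding partners. Mafk was at 75.5, 69.7 and 73.8 CPM in Control and at 69.6, 65.9 and 69.3 CPM in CW. In ESW it was at 78.9, 72.5 and 80.0 CPM, above every CW library and overlapping Control. The log2 fold change was 0.18 against CW (SE 0.05, adjusted p = 0.0292) and 0.08 against Control (SE 0.05, adjusted p = 0.344). The call against CW was lost without ESW replicate 1 (adjusted p = 0.0738), ESW replicate 3 (0.158), CW replicate 2 (0.149) or CW replicate 3 (0.0742), and with limma on log2(TPM + 1) (0.118). In CW against Control Mafk had a log2 fold change of -0.10 (adjusted p = 0.517), with no overlap of the libraries, which 3 of the 9 regulators showed in that comparison beside 14.7% of all genes.

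Maff, a small MAF gene known to respond to stress and inflammatory signals, was the regulator with the lowest read numbers, 362 to 716 per library. Control had 14.6, 14.7 and 14.6 CPM, ESW 13.1, 12.1 and 12.7, and CW 13.4, 13.2 and 12.9. Control lay above both other groups with no overlap, while ESW and CW overlapped. The log2 fold change in ESW against Control was -0.21 (SE 0.07), the largest in size of the 9, with an unadjusted p of 0.00627 and an adjusted p of 0.0653. Maff passed in 3 of 9 alternative settings. These were a filter of 1 CPM in 3 libraries (-0.22, adjusted p = 0.0491), average transcript length offsets (-0.27, adjusted p = 0.0456) and limma on log2(TPM + 1) (-0.24, adjusted p = 0.0481). In the other settings the adjusted p ran up to 0.122. When 1 library was left out, it was called in 0 of 9 fits (adjusted p = 0.0711 to 0.2). The log2 fold change in CW against Control was -0.15 (adjusted p = 0.499).

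Mafg was at 60.7 to 65.9 CPM in Control, 65.0 to 67.3 in ESW and 63.1 to 70.1 in CW, with overlap. Its log2 fold changes were 0.07 against Control and -0.03 against CW (adjusted p = 0.375 and 0.768). The value against CW had the opposite sign with average transcript length offsets. The promoters of Maff (GRCr8, chr7:112792537-112792786, plus strand) and Mafk (GRCr8, chr12:19959193-19959442, minus strand) are shown because these genes had the clearest differences of the small MAF genes and held motif matches.
Maff: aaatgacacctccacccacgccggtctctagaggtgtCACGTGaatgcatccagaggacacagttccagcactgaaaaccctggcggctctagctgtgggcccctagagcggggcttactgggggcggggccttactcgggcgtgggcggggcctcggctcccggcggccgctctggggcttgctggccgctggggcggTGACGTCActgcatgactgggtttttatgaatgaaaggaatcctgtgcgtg
Mafk: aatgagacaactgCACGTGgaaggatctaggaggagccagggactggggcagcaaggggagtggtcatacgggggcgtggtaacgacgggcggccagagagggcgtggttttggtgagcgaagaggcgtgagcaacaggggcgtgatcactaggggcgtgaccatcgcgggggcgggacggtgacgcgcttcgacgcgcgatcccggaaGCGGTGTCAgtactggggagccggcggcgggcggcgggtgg
The Maff window held an E-box and a cyclic AMP response element. The Mafk window held an E-box and, on the opposite strand, an antioxidant response element core. Mafg held an E-box in its window, and the windows of Nfe2l2, Bach1, Keap1 and Sqstm1 held none of the 4 motifs. A match describes letters only and was not linked to the differences in expression.

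Bach1, the repressor, was at 56.0, 51.4 and 54.0 CPM in Control. ESW had 56.6, 55.6 and 57.8 CPM and CW 55.2, 55.2 and 52.8 CPM. ESW lay above CW with no overlap and overlapped Control. The log2 fold changes were 0.07 against Control (SE 0.05, adjusted p = 0.349) and 0.06 against CW (SE 0.05, adjusted p = 0.483), and neither was called. The value against CW was -0.0006 with average transcript length offsets.

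Keap1, the substrate adaptor that senses oxidants, was at 20.3, 20.1 and 18.6 CPM in Control. It was at 22.7, 21.0 and 21.99 CPM in ESW and at 22.2, 20.6 and 21.5 CPM in CW. Both waters lay above Control with no overlap, and overlapped each other. Neither difference was called. The log2 fold change was 0.16 in ESW against Control (SE 0.06, adjusted p = 0.139) and 0.12 in CW against Control (SE 0.06, adjusted p = 0.543). ESW against CW gave 0.03 (adjusted p = 0.811). The interval of the difference between ESW and Control, 1.69% to 22.1%, does not include 0 before adjustment over all genes.

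Cul3, the ligase scaffold, was at 116, 107 and 106 CPM in Control, 107, 116 and 111 CPM in ESW, and 107, 106 and 102 CPM in CW, with overlap. Its log2 fold changes were 0.02 against Control and 0.08 against CW (adjusted p = 0.815 and 0.264). Cul3 has no promoter in the table used.

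Sqstm1, the gene of p62, was the most abundant regulator and the one with the firmest difference. Control had 399.5, 416.2 and 405.4 CPM, and CW 407.5, 411.2 and 416.0 CPM. ESW had 470.1, 457.7 and 461.1 CPM, and every ESW library was above all 6 others by more than the spread within any group. The rise was 0.19 on the log2 scale against Control (SE 0.03, 95% interval 8.20% to 19.6%, adjusted p = 0.0029) and 0.17 against CW (SE 0.03, 95% interval 6.99% to 18.3%, adjusted p = 0.0063). CW and Control differed by 0.02 (adjusted p = 0.929). Leaving out any 1 of the 9 libraries kept both calls, with adjusted p up to 0.019 against Control and up to 0.0382 against CW. With average transcript length offsets the rise against Control was 0.13 (adjusted p = 0.057), and with limma on log2(TPM + 1) it was 0.14 (adjusted p = 0.0732). On the latter scale the value against CW was 0.16 (adjusted p = 0.0585). The 250 bases before the Sqstm1 start (GRCr8, chr10:35037751-35038000, minus strand) are shown as those of the regulator that differed most firmly.
Sqstm1: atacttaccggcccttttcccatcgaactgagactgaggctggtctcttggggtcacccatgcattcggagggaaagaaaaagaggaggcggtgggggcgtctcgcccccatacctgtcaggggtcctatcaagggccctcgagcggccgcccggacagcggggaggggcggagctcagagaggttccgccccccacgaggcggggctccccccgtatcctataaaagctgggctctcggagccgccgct

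Genes whose levels followed the same course over the 9 libraries were sought among 9960 genes, by the root mean square difference between log2 CPM values that were each centred on their own mean. The points share libraries and depth, and the likeness is a description. For Sqstm1 the nearest were Atp6v0d1, a subunit of the lysosomal proton pump, at 0.0154, Ppp2r1a, the scaffold of protein phosphatase 2A, at 0.0183, and Phlda3 at 0.0188, against a median of 0.11 over all genes searched. For Nfe2l2 they were Synj2bp, Hmgn1 and Kdm1a, at 0.0174, 0.0186 and 0.0213 (median 0.0949). For Keap1 they were Gna11, Noc4l and Itm2b, at 0.0328, 0.0402 and 0.0413 (median 0.112), less close than the neighbours of Sqstm1. Keap1 had 599 to 910 reads per library against 10995 to 19878 for Sqstm1, and the part of this lower depth in the wider distances was not tested.

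The tables list 42 RefSeq transcripts of the 9 genes, of which 23 held at least 2% of their gene's TPM on average. These shares rest on Salmon's division of reads between overlapping transcripts and are described without a test. Nfe2l2 was dominated by a transcript of 2373 bases with 73.3% to 79.4% of its TPM, followed by one of 2352 bases with 18.7% to 25.5%, in all 3 groups alike. Sqstm1 was spread over more forms. Its main transcript of 1991 bases held 50.03% to 57.3%, and a short one of 892 bases held 19.7% to 26.3%, with overlapping groups. For Mafk 1 transcript held 91.3% to 98.3%, and for Maff 1 transcript held 96.6% to 100%.

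Some shares separated the groups, and those named here were picked after their values were seen. In ESW against Control the libraries did not overlap for 3 of the 23 transcripts, beside 10.1% of 33029 transcripts with at least 2% of a tested gene that has several. The counts were 2 of 23 in ESW against CW, beside 11.1%, and 2 of 23 in CW against Control, beside 9.56%. The Nfe2l1 transcript of 3580 bases held 7.62%, 7.99% and 4.71% in Control, 13.7%, 11.1% and 13.1% in ESW, and 7.88%, 14.6% and 10.8% in CW. It was higher in every ESW library than in Control, whereas CW overlapped both. The Nfe2l1 transcript of 4609 bases was lower in ESW, at 30.8% to 41.8%, than in Control, at 43.3% to 50.1%. In CW it held 30.6% to 43.7% and overlapped both. The Mafg transcript of 7599 bases held 12.1% to 13.98% in Control, 9.65% to 11.3% in ESW and 14.9% to 22.2% in CW. Keap1 was divided mainly between transcripts of 2720 and 2719 bases, whose shares were 23.1% and 62.9% in Control replicate 3, against 49.9% to 59.0% and 34.9% to 37.1% in the other Control libraries. The 2719-base share was 34.4% to 40.7% in ESW and 26.1% to 31.9% in CW, where it lay below both other groups, and it varied most within Control.

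**Figure D4:**
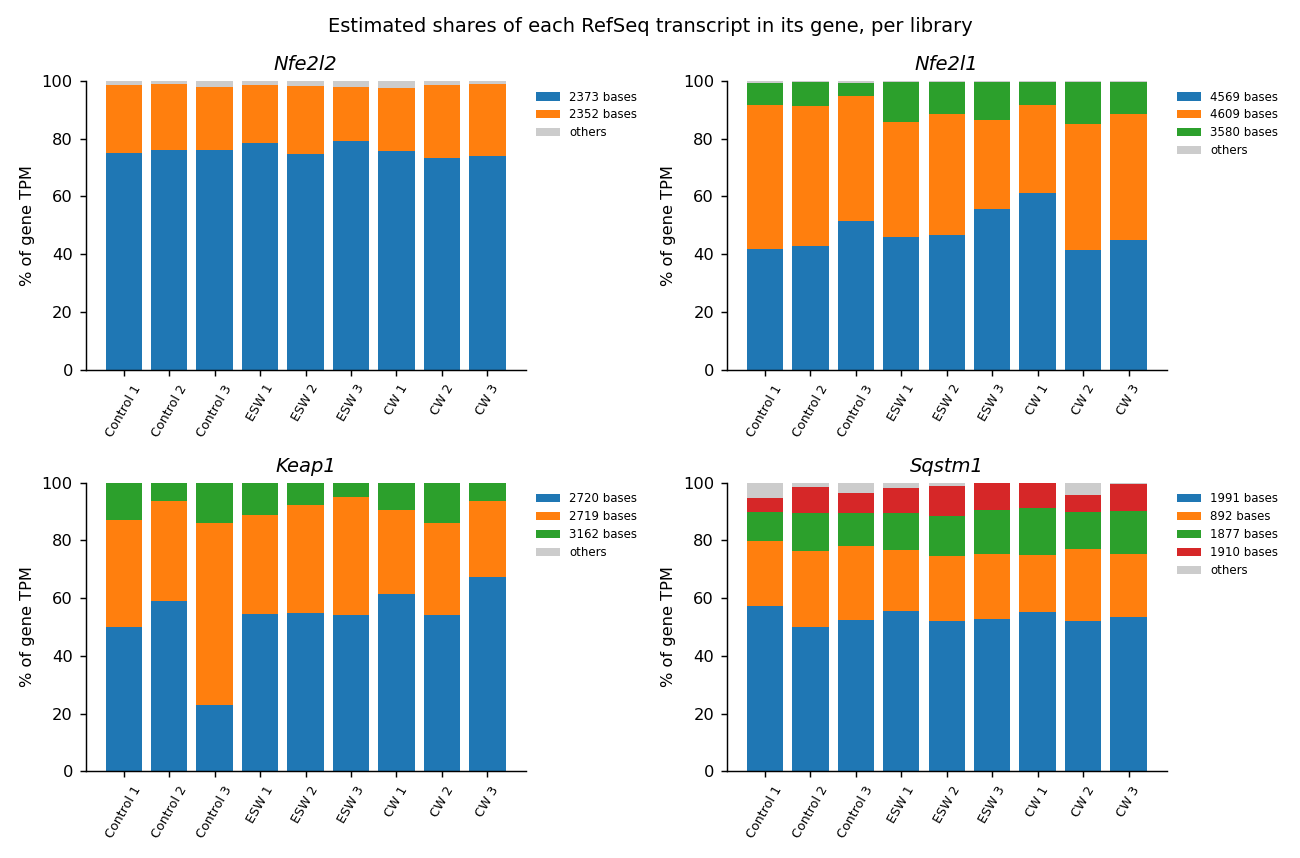
Stacked shares of each RefSeq transcript in the TPM of its gene (percent, from 0 to 100) for Nfe2l2, Nfe2l1, Keap1 and Sqstm1 in the 9 libraries, with transcripts named by length. The 3580-base form of Nfe2l1 is larger in ESW (11.1% to 13.7%) than in Control (4.71% to 7.99%), and Control replicate 3 stands apart for Keap1.

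Other genes of the pathway were read from 9 lists. Over all tested genes 4.76% were called higher and 3.28% lower in ESW than in Control, and 4.15% and 3.99% against CW. In a list of CUL3, SCF and other NRF2 turnover machinery, which also holds CUL4 ligase subunits, a deubiquitinase and kinases, 2 of 16 genes were higher and 2 lower in ESW than in Control, and 12 were not called. Nedd8, the modifier that activates cullins, fell by 0.22 (adjusted p = 0.0077) and Skp1, an SCF subunit, fell by 0.17 on the log2 scale (adjusted p = 0.0081), whereas Ddb1, an adaptor of CUL4 ligases, rose by 0.15 and Usp11, a deubiquitinase, by 0.17. Against CW 3 of 16 were higher, Ddb1 at 0.15, Fbxw11, a beta-TrCP F-box protein, at 0.21, and the kinase gene Gsk3a at 0.16, and 0 were called lower (edgeR). Nedd8 lay at 77.6 to 84.35 CPM in ESW and 87.6 to 93.6 in CW, and Skp1 at 282.5 to 295.4 and 296.8 to 316.2. Neither was called, although neither overlapped, as for 28.3% of all tested genes in that comparison. The median of the list was 0.04 against Control and 0.07 against CW.

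In a list of other KEAP1-binding proteins, 1 of 12 genes was higher and 1 lower than in Control. The list also holds genes of proteins that bind NRF2 rather than KEAP1. Cdkn1a is such a gene and encodes the cell cycle inhibitor p21. Cdkn1a was at 132 ± 9.44 CPM in Control and 163 ± 3.12 CPM in ESW (SD, n = 3 per group). It rose by 0.30 on the log2 scale (edgeR adjusted p = 0.00086). Ptma, prothymosin alpha, fell by 0.16 against Control (adjusted p = 0.0407) and had a value of 0.0036 against CW. Against CW Cdkn1a was the 1 called gene, at 0.26.

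Among the nuclear partners of NRF2 3 of 13 were higher than in Control and 2 higher than in CW. Rxra, a nuclear receptor that can bind and restrain NRF2, rose by 0.23 and 0.25 (adjusted p = 0.0062 and 0.0056). Jund, an AP-1 subunit, rose by 0.18 and 0.21, and Med16, a Mediator subunit, rose by 0.17 against Control and had a value of 0.10 against CW (adjusted p = 0.184). Of 17 kinase and phosphatase genes 2 were higher in each comparison, Mapk3 (0.21 and 0.15) in both, Ulk1, the kinase that starts autophagy, against Control (0.19) and Akt1 against CW (0.12). Of 8 genes that act on the release, deglycosylation, cleavage or turnover of NRF1, 0 were called in either comparison (edgeR), with medians of 0.05 and 0.02.

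The relatives of the regulators ranged from a few reads to the level of Maff and Keap1. Of 7 other CNC, BACH and MAF genes 3 were tested and 0 called by edgeR. They were Maf at 14.4 to 20.1 CPM, Mafa at 4.52 to 5.98 CPM and Bach2 at 1.71 to 2.61 CPM. Nfe2, Nfe2l3 and Nrl had 6, 9 and 2 reads over the 9 libraries.

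Known target genes of the regulators came next. Of 22 targets of NRF2 and BACH1 12 were called higher than in Control and 8 higher than in CW, beside 4.76% and 4.15% of all tested genes. In either comparison 0 were called lower, beside 3.28% and 3.99%, and the medians were 0.15 and 0.13. Hmox1, heme oxygenase 1, which NRF2 and BACH1 control in opposite directions, was at 59.9 ± 2.48 CPM in Control, 66.8 ± 1.66 in CW and 81.1 ± 3.31 in ESW (SD, n = 3 per group), and rose by 0.44 against Control and 0.28 against CW. Ftl1, the ferritin light chain, rose by 0.37 and 0.22. Pgd, an enzyme that supplies NADPH, rose by 0.23 against Control and 0.15 against CW. Gsr, glutathione reductase, rose by 0.25 in both. Of the targets not called against Control, Gclm had a mean of 12.8 CPM in Control and 11.55 in ESW. Slc7a11 (11.3 and 10.05 CPM), Txn1 (114 and 103) and Prdx1 (366 and 352) were also lower in ESW, each with overlapping libraries. The means of Srxn1, Taldo1, Me1, Abcc1, Blvrb and Ephx1, not called either, were higher in ESW. Of 31 proteasome subunits, known targets of NRF1, 8 were lower and 1 higher than in Control, beside 3.28% and 4.76% of all tested genes. Against CW 5 were lower and 1 higher, beside 3.99% and 4.15%. The medians were -0.07 and -0.05. Psma6 and Psmb1 fell by 0.32 and 0.34 against Control and by 0.25 and 0.28 against CW, and Psmd14 fell by 0.21 and 0.16. Whether these lists differ from other genes was not tested. The 1 higher subunit was Psmd2, at 0.16 in each comparison.

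Among partners of p62 and autophagy receptors 2 of 13 were higher than in Control, Map1lc3a at 0.15 and Map1lc3b at 0.12, both of which encode the LC3 proteins that p62 binds on autophagosomes (adjusted p = 0.0419 and 0.046). Against CW 0 were called by edgeR, with values of 0.13 and 0.06 for these genes (adjusted p = 0.0846 and 0.361). In CW against Control 0 genes of any of the 9 lists were called by edgeR, beside 0.177% of all tested genes.

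**Figure D5:**
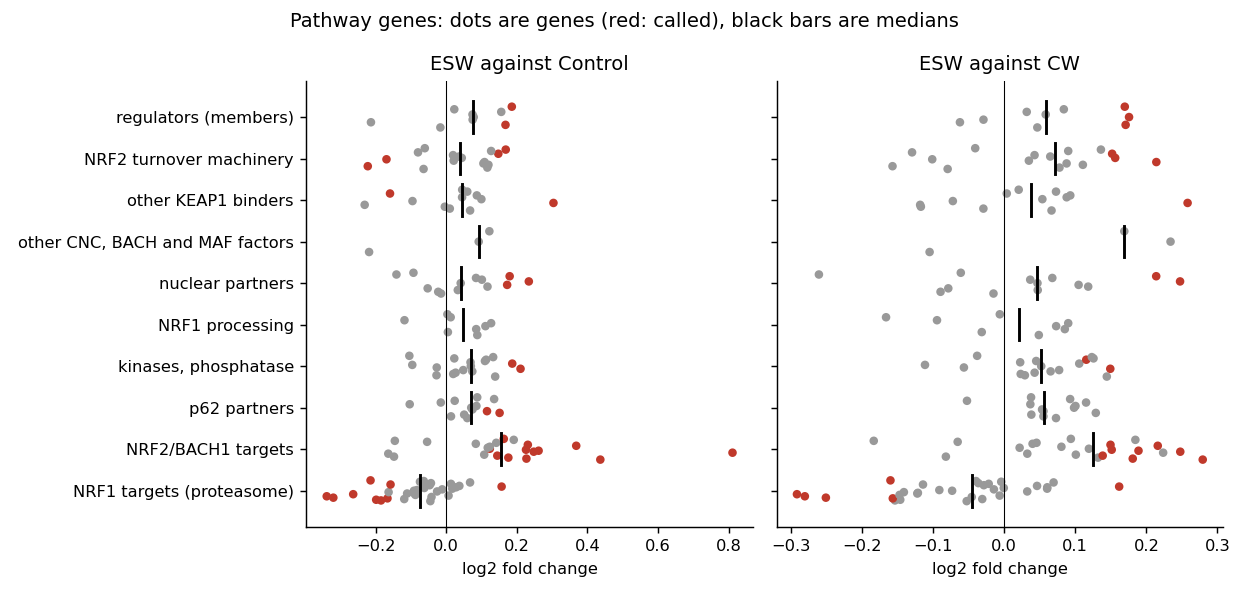
Log2 fold change of every tested gene of the regulators and of 9 pathway lists (dots, red where the adjusted p is below 0.05) with the list median (black bar), for ESW against Control and against CW. The medians of the NRF2 and BACH1 targets are 0.15 and 0.13 and those of the proteasome subunits -0.07 and -0.05.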

How the data were processed

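Per the labels' protocols, RNA of H9c2(2-1) cells was isolated with the RNeasy Plus Mini kit and the libraries were read by NovaSeq X Plus. Salmon 1.10.3 and DESeq2 are named in the submitters' processing notes. The deposited tables give, per the file headers, the estimated count of reads, the TPM, the length and the effective length of 114122 RefSeq transcripts in each library. The transcript release and the bias and strand settings are not given in the sources used here.

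Gene symbols came from the RefSeq table of GRCr8, in which every transcript was found. Estimated counts were summed per gene symbol and rounded. The quasi-likelihood test of edgeR 4.0.16 (R 4.3.3) with TMM scaling and filterByExpr was fitted to 14706 genes with 1 mean per group, and the Benjamini-Hochberg method adjusted p over all of them. A gene was called below an adjusted p of 0.05. Intervals are at 95%. Alternatives were DESeq2 1.42.0, DESeq2 size factors, no filter, 1 CPM in 3 libraries, limma 3.58.1 (voom, or log2(TPM + 1) for genes with a mean TPM of at least 1), transcript length offsets, 2-group fits, a replicate block and leaving out each library. The script was tested on simulated data. Genes that overlap Mafk and Cul3 held 29 and 6 reads in all.

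The members and lists were chosen with earlier results of these data known. Named were all 9 regulators, the called genes of each list (at most the 4 with the smallest p per comparison), and the 3 genes nearest in course to Nfe2l2, Keap1 and Sqstm1 (mean CPM of 5 or more). The NRF2 and BACH1 targets not called against Control were named as well. Some genes of the lists that met this rule are not reported here.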

Additional observations from a re-analysis of the deposited data

How the results depend on the processing

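In ESW against Control the 1183 called genes became 440 with average transcript length offsets and 155 with limma on log2(TPM + 1), where 1 regulator, Maff, was called. In ESW against CW the 1197 became 1 with limma on log2(TPM + 1), where 0 regulators were called. In CW against Control the 26 became 78 with DESeq2, 273 without a filter, 1 with length offsets, 16 in the fit of 2 groups and 0 with limma on log2(TPM + 1). Leaving out 1 library gave 397 (without ESW replicate 3) to 1544 (without Control replicate 1) genes and 1 to 2 regulators in ESW against Control. It gave 314 (without ESW replicate 3) to 1486 (without Control replicate 1) genes and 1 to 3 regulators in ESW against CW, and 5 (without CW replicate 3) to 51 (without Control replicate 3) genes and 0 regulators in CW against Control. The cause was not tested.

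Of the single regulators, values near 0 turned sign. In ESW against Control Nfe2l2 was 0.0028 with length offsets and 0.0126 with log2(TPM + 1), and -0.0585 to 0.0049 when 1 library was left out, with values above 0 without Control replicate 1, ESW replicate 1 (0.0021) or ESW replicate 3 (0.0047). Cul3 ran from -0.0064 to 0.0605, below 0 without ESW replicate 2 or Control replicate 3 (-0.0015). In ESW against CW Mafg was 0.0325 with length offsets, 0.0329 with log2(TPM + 1) and -0.0691 to 0.0037 when 1 library was left out, above 0 without CW replicate 2, and Bach1 was -0.0006 with length offsets. In CW against Control Nfe2l1 was 0.0009, 0.0014, 0.0028 and 0.0114 with DESeq2 size factors, the 1 CPM filter, length offsets and log2(TPM + 1), and -0.038 to 0.0358 when 1 library was left out, above 0 without Control replicate 1 or CW replicate 2 (0.0296). Sqstm1 was -0.0298 with length offsets and -0.022 with log2(TPM + 1), and Bach1 ran from -0.0157 to 0.0473, below 0 without Control replicate 2. None of these values was called.

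No pairing by replicate number was seen. Deviations of same-numbered libraries from their group means correlated at -0.118 to 0.04 in 9 pairs, and the own number was the best match in 6 of 18 cases. The labels do not say whether same-numbered libraries shared a culture or day, and these correlations cannot exclude a small shared effect. With the replicate block 971, 949 and 25 genes were called in the 3 comparisons, with 2, 3 and 0 regulators. Depth limits Maff and Keap1 most, with 362 to 716 and 599 to 910 reads per library.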
